A study of Mus musculus with 8 samples.

Results

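In wild-type mouse embryonic fibroblasts, 1665 of the 27108 regions listed for histone H3 lysine 9 trimethylation (H3K9me3) lay on chromosomes 3, 4, 6, 7, 12, 13, 16 and 18. They were chosen by chromosome alone, as every H3K9me3 region on these 8 autosomes. Together they covered 16.88 Mb, which was 1.67% of the 1013 assembled Mb of the 8 chromosomes. On the 9 chromosomes that the mark covered broadly (5, 8, 9, 10, 11, 14, 15, 17 and 19), which have the same assembled length of 1013 Mb, 23355 regions covered 265.5 Mb or 26.2% of the bases. The study had 8 sequencing libraries from 1 cell line, with 2 replicates each of fragmented input DNA and of chromatin immunoprecipitation (ChIP) for H3K9me1, H3K9me2 and H3K9me3. The cells carry a conditional Eset1 (Setdb1) allele with a tamoxifen-inducible Cre and come from 1 clone picked for its Cre activity. They were not induced and served as the wild type, and the age and strain of the embryos were not given in the sources used here. Each mark had a single list of regions, so the values below have no replicate error and no test between conditions was possible. The lists hold positions only, so neither reads nor enrichment per region are known, and the labelled cell type could not be checked against marker genes.

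H3K9me3 is a hallmark of constitutive heterochromatin, where it is bound by HP1 proteins and keeps repeats and transposable elements silent. The SUV39H enzymes place it mainly at satellite repeats, and SETDB1 places it at endogenous retroviruses and at some gene families after recruitment by KRAB zinc finger proteins. H3K9me2 is placed largely by G9a and GLP, and H3K9me1 is both a step towards the higher states and a state found in its own right. Endogenous retroviruses copy themselves through a tRNA that pairs with a primer binding site next to the left long terminal repeat. The tRNA differs between families: intracisternal A particles use tRNA-Phe, murine leukaemia virus relatives tRNA-Pro, VL30 elements tRNA-Gly, MERVL tRNA-Leu, and MusD elements tRNA-Lys.

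Many of the regions held copies of the same sequence. Of the 9817877 distinct 24-base words found in them, 1255108 occurred in at least 2 of the 1665 regions, 77562 in at least 10, and the most widespread word in 430. The 4 windows of 300 bases below, read from the GRCm38 plus strand, are those whose words occurred in the most other regions, each window sharing no word with the others. They are shown because they stand for the sequence that recurred most under H3K9me3 on these chromosomes. Capitals mark the 24-base word of the window that was held by the most other regions.
Window 1, chr13:60198721-60199020: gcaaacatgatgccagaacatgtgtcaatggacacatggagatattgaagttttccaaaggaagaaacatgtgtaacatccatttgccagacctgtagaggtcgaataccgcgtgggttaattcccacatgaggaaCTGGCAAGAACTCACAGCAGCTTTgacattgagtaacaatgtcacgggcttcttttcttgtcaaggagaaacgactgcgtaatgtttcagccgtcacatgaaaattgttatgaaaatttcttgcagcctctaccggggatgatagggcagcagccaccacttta
Window 2, chr12:61291191-61291490: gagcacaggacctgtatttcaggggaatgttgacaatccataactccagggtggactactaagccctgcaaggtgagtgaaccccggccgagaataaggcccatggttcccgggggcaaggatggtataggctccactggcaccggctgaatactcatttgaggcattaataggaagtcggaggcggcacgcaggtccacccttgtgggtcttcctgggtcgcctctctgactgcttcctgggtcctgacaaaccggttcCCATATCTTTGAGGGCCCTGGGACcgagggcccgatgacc
Window 3, chr12:65029601-65029900: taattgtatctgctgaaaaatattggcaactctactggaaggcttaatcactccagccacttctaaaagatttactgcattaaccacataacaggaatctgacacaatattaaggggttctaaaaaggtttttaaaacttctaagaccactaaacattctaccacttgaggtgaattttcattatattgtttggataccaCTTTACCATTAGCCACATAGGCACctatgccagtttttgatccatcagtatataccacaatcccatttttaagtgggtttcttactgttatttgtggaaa
Window 4, chr13:120228211-120228510: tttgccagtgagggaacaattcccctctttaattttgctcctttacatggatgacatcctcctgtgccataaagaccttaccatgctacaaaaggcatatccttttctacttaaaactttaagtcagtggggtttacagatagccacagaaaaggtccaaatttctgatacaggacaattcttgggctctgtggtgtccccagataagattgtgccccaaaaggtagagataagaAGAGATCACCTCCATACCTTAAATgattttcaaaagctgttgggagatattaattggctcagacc
The marked words were found in 352, 360, 361 and 351 other regions, and all 300 bases of each window were soft-masked as repeats in the reference. The 4 windows belonged together in the genome, since 252 regions carried a copy of each of the 4 and 467 regions (28.0%) a copy of at least 1, where a copy holds at least 50% of a window's words. No repeat annotation was used here, so the windows are given by their sequence and not by an element name.

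The copies of these windows on the 8 chromosomes lay mostly inside the regions, although the windows were picked for being common there. Of 584 copies of window 1, 362 (62.0%) met an H3K9me3 region. The values were 360 of 492 (73.2%) for window 2, 369 of 596 (61.9%) for window 3 and 329 of 498 (66.1%) for window 4. On the 9 broadly covered chromosomes, which held 488 to 600 copies of each window, 94.6% to 98.0% of the copies met H3K9me3. The copy number was therefore close to that of the sparse chromosomes, whereas the share under the mark was higher. Regions with a copy had a median width of 6.0 kb (middle 50% of regions from 4.5 to 7.5 kb), and 91.2% of their bases were soft-masked.

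Primer binding sites were searched for next. The 18 bases complementary to the 3′ end of each tRNA gene of RefSeq, with the added CCA, were looked for as exact matches on both strands. The 5 sites with the most matches inside the regions are shown in their flanks, in capitals, each from the narrowest single region that held it, in GRCm38.
tRNA-Phe site 1, chr13:54771417-54771516, plus strand: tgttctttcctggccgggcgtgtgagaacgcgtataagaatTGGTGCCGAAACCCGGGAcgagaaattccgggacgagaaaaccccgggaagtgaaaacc
tRNA-Pro site, chr7:42523215-42523314, minus strand: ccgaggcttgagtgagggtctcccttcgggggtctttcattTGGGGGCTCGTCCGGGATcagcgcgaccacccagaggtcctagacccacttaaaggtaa
tRNA-Gly site, chr4:12137526-12137625, minus strand: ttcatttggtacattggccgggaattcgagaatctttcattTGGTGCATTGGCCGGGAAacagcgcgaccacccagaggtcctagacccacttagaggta
tRNA-Ile site, chr3:76850943-76851042, plus strand: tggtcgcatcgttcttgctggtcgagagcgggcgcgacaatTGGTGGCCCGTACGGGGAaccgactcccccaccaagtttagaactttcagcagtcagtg
tRNA-Phe site 2, chr13:23645716-23645815, minus strand: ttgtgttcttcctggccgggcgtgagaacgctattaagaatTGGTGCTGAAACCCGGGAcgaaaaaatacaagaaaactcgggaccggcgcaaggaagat
The Gly example held a nearly identical stretch shortly before the marked site. Site 1 of tRNA-Phe fits 7 annotated tRNA genes, 1 of them labelled as tRNA-Ser, and site 2 fits 1 gene.

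The sites shown were picked for their matches inside the regions, so their shares are a description and were not tested. The regions made up 1.67% of the bases of the 8 chromosomes and held 110 of their 446 matches to tRNA-Phe site 1 (24.66%). That was 6.52 matches per Mb inside the regions against 0.337 per Mb outside them, a ratio of 19.3. For tRNA-Pro, the primer of the murine leukaemia virus type, 35 of 57 matches (61.4%) lay inside, at 2.07 against 0.0221 per Mb. For the tRNA-Gly site shown it was 30 of 95 (31.6%), for tRNA-Phe site 2 it was 24 of 158 (15.2%), and for the tRNA-Ile site shown it was 30 of 269 (11.2%). A tRNA-Gly and a tRNA-Ile site not shown had 2 of 21 (9.52%) and 2 of 26 (7.69%). The tRNA-Gln sites had 6 of 34 (17.65%) and 5 of 28 (17.86%), and a tRNA-Thr site had 0 of 23. Of the 3 tRNA-Leu sites, the primer type of MERVL, the most frequent had 2 of 223 matches (0.897%) inside, at 0.118 per Mb against 0.222 per Mb outside, and the others had 1 of 83 (1.205%) and 2 of 78 (2.56%). For tRNA-Lys, the primer type of MusD, 1 site had 5 of 34 matches (14.7%) inside and another had 1 of 25 (4%). Which of these sites MusD uses was not determined here. On the broadly covered chromosomes 86.4% of the tRNA-Phe site 1 matches and 89.7% of the tRNA-Pro matches lay in H3K9me3. For the most frequent tRNA-Leu site it was 50.8%, and for the other tRNA-Leu sites 50.5% and 41.8%. A match is a stretch of letters, not proof of an element, and degraded copies with a changed site are missed.

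Most regions with a tRNA-Phe match, but few with a tRNA-Pro or tRNA-Gly match, also held window sequence. Of 127 regions with either tRNA-Phe site, 77 also held a copy of at least 1 of the 4 windows, against 467 of all 1665 regions (28.05%). Among regions with a tRNA-Pro site it was 1 of 35, among those with a tRNA-Gly site 1 of 31, and among those with a tRNA-Ile site 2 of 28. In all, 218 regions (13.1%) held at least 1 match to the 15 sites that occurred 20 times or more on the 8 chromosomes. By chromosome this share ran from 7.32% of the regions on chromosome 18 to 16.6% on chromosome 6. The windows were held by 56.1% of the regions on chromosome 18 and 53.6% on chromosome 16, but by 20.3% on chromosome 4 and 16.1% on chromosome 12.

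**Figure D1:**
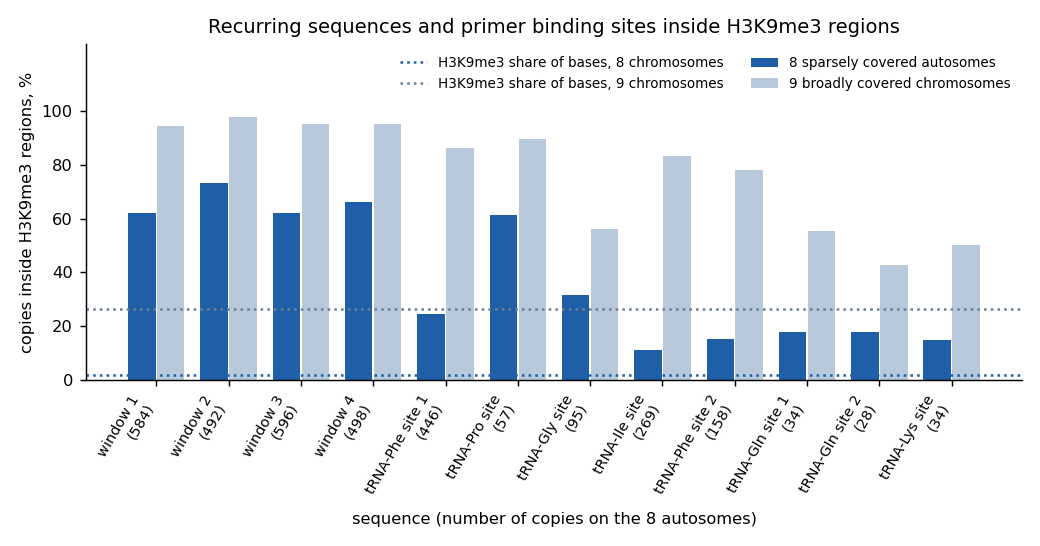
Percent of the copies of each sequence (vertical axis) that lay inside H3K9me3 regions, for the 4 windows and the 8 primer binding sites with at least 5 matches inside the regions (horizontal axis, number of copies on the 8 autosomes in brackets); dark bars are the 8 sparsely covered autosomes, pale bars the 9 broadly covered chromosomes, and dotted lines the share of all bases under H3K9me3 in each set. The sequences were picked for being frequent inside the regions, so nothing is read from the dark bars standing above the lower dotted line at 1.67%; they run from 11.2% for the tRNA-Ile site to 73.2% for window 2, and every pale bar is taller than its dark neighbour.

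Most regions were a few kilobases wide, and a small number were very wide. The lists are laid on a grid of 750 bp, so every width is a multiple of it. The median region was 6.0 kb, the middle 50% ran from 3.75 to 9.0 kb, and the range was 0.75 to 411 kb. The 42 regions over 48 kb held 4296 kb and the 376 regions of 1.5 to 3 kb held 903 kb. The median width was 5.25 kb on the broadly covered chromosomes and on chromosomes 1 and 2. The sparse chromosomes had 16.4 regions per 10 Mb against 231 on the broad ones, and their upper quartile of width was 9.0 kb against 11.25 kb. Chromosome 4 had the widest regions by median, at 8.25 kb, and 25 of the 41 regions of at least 50 kb. The other wide regions were on chromosomes 7 (8 regions), 12 (3), 13 (3) and 3 (2). On chromosomes 6, 16 and 18 no region exceeded 16.5 kb. The widest of chromosome 6, chr6:3184501-3201000, was 66.55% soft-masked with no other mark, and the widest of chromosome 16, chr16:3270751-3285000, was 14.25 kb with H3K9me1 and H3K9me2 each on 89.5% of it, within 50 kb of an assembly gap. The widest of chromosome 13, chr13:12861751-12970500, was 108.8 kb with H3K9me1 on 84.8% and H3K9me2 on 31.7% of it.

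The chromosomes differed in how much they carried. Chromosome 12 had the most regions (360, covering 3143 kb or 2.69% of its bases), and chromosome 4 the most covered bases (301 regions, 6028 kb, 3.96%). Chromosome 7 followed with 265 regions and 3143 kb (2.22%). Chromosome 13 had 184 regions on 1.15% of its bases, chromosome 3 had 211 on 0.921%, chromosome 6 had 193 on 0.687% and chromosome 16 had 110 on 0.582%. Chromosome 18 had the fewest, with 41 regions on 213.8 kb or 0.244%. The median region was 98.1% soft-masked on chromosome 18, 97.8% on chromosome 16 and 94.1% on chromosome 6, against 39.4% on chromosome 4 and 42.5% on chromosome 12.

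**Figure D2:**
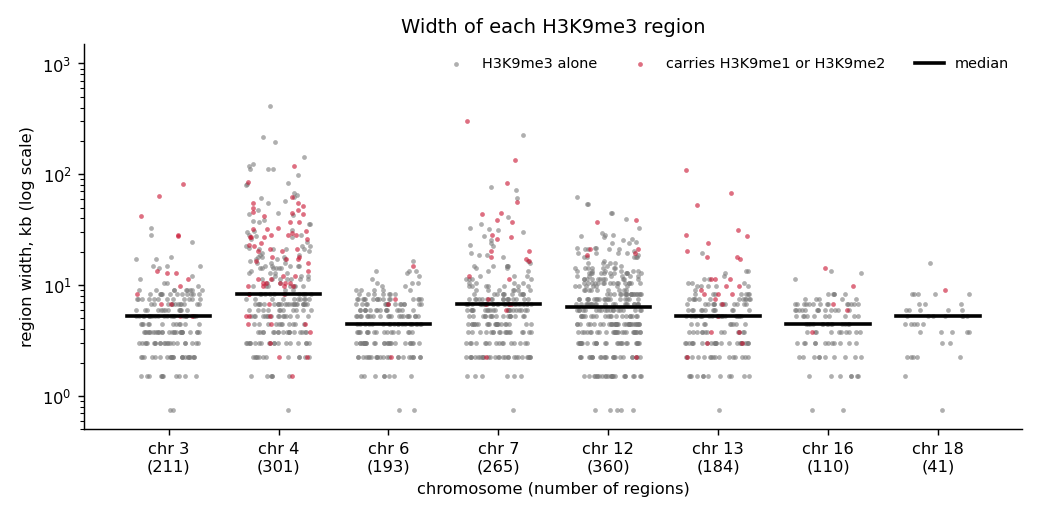
Width of each of the 1665 H3K9me3 regions in kb (log scale) by chromosome, with the number of regions in brackets; each point is 1 region, red where it also meets an H3K9me1 or H3K9me2 region and grey where it does not, and the black bar is the median of the chromosome. Medians lie between 4.5 and 8.25 kb on all 8 chromosomes, while points above 50 kb are found on chromosomes 3, 4, 7, 12 and 13.

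The regions were unevenly spaced. Neighbouring regions were a median of 147 kb apart, with the middle 50% of gaps from 15.8 to 746 kb and the longest at 7.45 Mb. Of 1657 gaps, 315 were at most 10 kb, 29 were a single 750 bp step, and 324 were over 1 Mb. Chaining regions no more than 100 kb apart gave 908 groups, of which 729 were single regions and 97 were pairs. The other 82 groups had 3 or more regions, and these clusters held 742 regions (44.6%, 95% Wilson interval 42.2% to 47.0%, counting error only). The 27 groups of 10 or more held 508 regions and 8846 kb. The 8 clusters with the most covered bases held 32.1% of all covered bases.

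Single regions and clusters differed in sequence. Single regions had a median width of 4.5 kb, and 84.6% of their bases were soft-masked (median over regions 97.1%), against 33.9% of the bases of the same chromosomes outside H3K9me3. Of them, 346 of 729 (47.5%) held a copy of 1 of the 4 windows, and 99 (13.6%) held a primer binding site. In groups of 10 or more the soft-masked share was 32.1%, below that outside the regions, 20 of 508 regions (3.94%) held a window, and 37 (7.28%) a primer binding site. Over all clusters of 3 or more the soft-masked share was 36.4%, above that outside the regions. Of their 742 regions, 50 (6.74%) held a window and 74 (9.97%) a primer binding site. The share of regions in clusters was 68.8% on chromosome 4, 64.7% on chromosome 12, 44.0% on chromosome 13 and 42.3% on chromosome 7, but 14.5% on chromosome 16, 10.9% on chromosome 6 and 7.32% on chromosome 18.

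The clusters were of 3 kinds, told apart after their values were seen by the other marks and by duplicated sequence. Duplicated sequence was measured as the share of unmasked 24-base words (a fixed 1-in-16 sample) that occurred more than once in the genome, which was 4.03% outside the regions. The first kind, 24 clusters with 299 regions and 5559 kb, met no H3K9me1 or H3K9me2 region and had 0.709% duplicated words. Its bases were 19.9% soft-masked with a GC content of 48.9%, against 41.6% GC outside the regions. The second kind, 30 clusters with 262 regions and 4988 kb, met another mark and had 71.6% duplicated words, 49.7% soft-masked bases and 41.7% GC. The third, 27 clusters with 177 regions and 1328 kb, met no other mark and had 78.5% duplicated words. The first kind took in clusters under 5% and the third those of 10% or more. No minimum number of words was asked of a cluster, so some of these shares rest on very few. At chr6:41877751-42021000 the share of 100% rested on 2 sampled words in 1 region and 0 in the others. At chr4:38855251-38913000 the share of 0% rested on 7 words in 1 region and 0 in the others. A single further cluster met no other mark and had between 5 and 10% duplicated words. Of the first kind, 3435 kb lay on chromosome 4 and 1428 kb on chromosome 12.

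**Figure D3:**
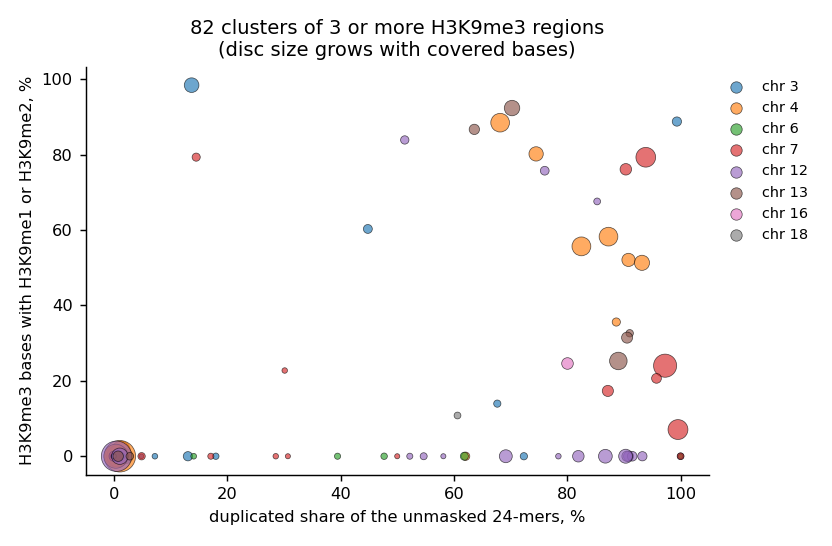
Each disc is 1 of the 82 clusters of 3 or more H3K9me3 regions, coloured by chromosome, with a disc size that grows with the covered bases; the horizontal axis is the duplicated share of its unmasked 24-base words in percent and the vertical axis the percent of its H3K9me3 bases that also carry H3K9me1 or H3K9me2. The 3 largest discs sit at the lower left, near 0% on both axes, and 29 of the 30 clusters with another mark have at least 10% duplicated words, spread from the bottom to the top of the vertical axis, while a row of chromosome 12 clusters lies at 0% on the vertical axis beyond 50% duplicated. No minimum number of words was asked of a cluster, so the horizontal place of some discs rests on very few.

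Some wide domains with H3K9me3 alone covered long protein-coding genes whole or nearly so. The largest spanned chr4:152501251-153921000 (GRCm38), where 15 regions covered 1271 kb or 89.5% of the span. It included the widest region of the 8 chromosomes, chr4:153212251-153623250, 411 kb wide. This region covered all of Ajap1, an adherens junction associated membrane protein gene (109.6 kb, minus strand). The cluster also covered 15 kb (17.4%) of Nphp4, a nephrocystin gene of the primary cilium. Neither H3K9me1 nor H3K9me2 was listed anywhere on the cluster, 22.0% of its bases were soft-masked and 1.06% of its words were duplicated.

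On chromosome 12, 71 regions at chr12:106221001-108083250 covered 1161 kb, the cluster with the most regions. It met 20 annotated genes of which 2 were protein-coding, and among named genes it covered 42.0 kb (45.1%) of Bcl11b, a zinc finger transcription factor gene of T cells and neurons. Its widest region, chr12:107663251-107725500, was the widest of chromosome 12 at 62.25 kb. Further along chromosome 4, 11 regions at chr4:154056751-154856250 covered 645 kb and met 14 annotated genes of which 7 were protein-coding. They covered 98.6% of Prdm16 (316.2 kb), which directs brown fat differentiation, 97.1% of Megf6 and 63.4% of the p53 family gene Trp73. At chr4:127590001-128477250, 30 regions covered 476.2 kb, of which 344.6 kb lay in Csmd2, a gene for a large membrane protein of synapses. At chr4:142107001-142917000, 21 regions covered 476.2 kb, with 83.6 kb in Kazn, which encodes the junction protein kazrin. None of these 5 clusters met another mark, and their duplicated share ran from 0.332% to 1.06%.

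Some smaller clusters of the same kind, named after their values were seen, also lay on long genes. They covered 201.7 kb (90.3%) of Grik3, a kainate receptor gene, 173.4 kb (78.9%) of Igsf21, a synaptic adhesion gene, 224.2 kb (28.4%) of Ptprn2, a gene of secretory vesicles, and 168.7 kb (32.0%) of the sialyltransferase gene St6galnac3. Expression was not measured in these files, so nothing is shown on whether these genes were active. They are examples from the 24 clusters of this kind, and the share of its bases that lay in genes was not counted.

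The other marks covered a small part of the regions. Of the 1665 regions, 116 (6.97%, 95% Wilson interval 5.84% to 8.29%) met an H3K9me1 region by at least 1 bp, and 130 (7.81%, 6.61% to 9.20%) met an H3K9me2 region. Over the whole H3K9me3 list, 40.7% of regions met H3K9me1 and 56.7% met H3K9me2. On the broadly covered chromosomes the shares were 45.9% and 63.5%, and on chromosomes 1 and 2 they were 9.74% and 18.3%. The marks came together: 94 regions met both, 22 H3K9me1 only and 36 H3K9me2 only, which left 1513 regions (90.9%) with H3K9me3 alone. In bases, 11.2% of the covered length carried H3K9me1 and 15.2% H3K9me2. Both other lists were themselves sparse here, with 2842 kb of H3K9me1 and 2696 kb of H3K9me2 on the 1013 assembled Mb. The low shares of regions meeting them are therefore not shown to be particular to the H3K9me3 regions. H3K9me3 alone means that neither other list had a region there, not that the marks were absent.

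Seen from the other lists, nearly all H3K9me2 on these chromosomes lay on H3K9me3. There were 175 H3K9me2 regions on the 8 chromosomes, and 166 of them (94.9%) met an H3K9me3 region, with 95.5% of their 2696 kb on it. Of 232 H3K9me1 regions, 156 (67.2%) met H3K9me3, with 66.6% of their 2842 kb on it. Chromosome 4 held 99 of the H3K9me1 and 83 of the H3K9me2 regions. Chromosome 18 had 13 H3K9me1 regions, of which 1 met H3K9me3, and 0 H3K9me2 regions.

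Other marks were found on wide regions and on some chromosomes. The share that met H3K9me1 or H3K9me2 was 2.66% at 1.5 to 3 kb, 2.87% at 3.75 to 6 kb, 9.26% at 6.75 to 12 kb, 20.8% at 12.75 to 24 kb, 45.3% at 24.75 to 48 kb and 38.1% over 48 kb. The lists were called separately, and the part of width itself in these shares was not tested. By chromosome, 68 of 301 regions (22.6%, interval 18.2% to 27.6%) met another mark on chromosome 4 and 28 of 184 (15.2%, 10.7% to 21.1%) on chromosome 13, but 7 of 360 (1.94%, 0.945% to 3.96%) on chromosome 12 and 4 of 193 (2.07%, 0.809% to 5.21%) on chromosome 6. These intervals treat neighbouring regions as independent, which clustered regions need not be. Chromosomes 4 and 12, which had similar shares of clustered regions, were thus far apart in the other marks.

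**Figure D4:**
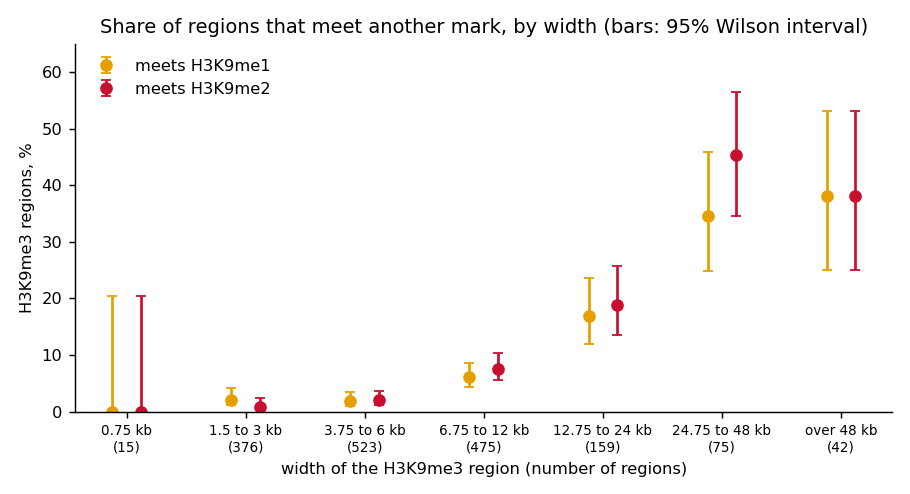
Percent of H3K9me3 regions that met an H3K9me1 (orange) or H3K9me2 (red) region by at least 1 bp, by width class in kb with the number of regions in brackets; points are shares and bars are 95% Wilson intervals, which cover counting error only. Both shares stay under 3% up to 6 kb and reach 34.7% and 45.3% at 24.75 to 48 kb.

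Regions with another mark lay in duplicated sequence. In the 152 regions with either mark, 75.7% of the unmasked 24-base words were duplicated, against 16.9% in the 1513 with H3K9me3 alone and 4.03% outside. Leaving out chromosome 4 gave 74.6% and 30.3%, leaving out chromosome 7 gave 72.0% and 13.4%. Among the 42 regions over 48 kb the values were 71.8% in the 16 with another mark and 6.04% in the 26 without. Turned round, of the 989 regions with at least 20 sampled unmasked words, 1 of the 292 with no duplicated word and 3 of the 182 with up to 5% met another mark, compared with 11 of 71 (15.5%) at over 5 to 25% and 121 of 444 (27.2%) at over 25%. The 152 regions with another mark had a GC content of 40.6%, against 47.5% in the 1513 with H3K9me3 alone. Of the 152, 21 (13.8%) lay within 50 kb of an assembly gap, against 40 (2.64%) of the 1513. How reads that fit several places were treated is not given in the sources used here, and its part in these values was not tested. More than 50 kb from any gap the duplicated shares were 74.1% and 16.1%.

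Several of the clusters with other marks lay over gene families. The widest region of chromosome 7, chr7:15150001-15452250, was 302.2 kb wide and carried H3K9me2 on 98.3% and H3K9me1 on 45.2% of its length. It lay in the array of Obox genes, homeobox genes active in oocytes and early embryos, and its cluster covered 76.6% of Obox1 and all of Obox2. Of the words in the cluster 93.9% were duplicated. On chromosome 4, 4 clusters in a row covered zinc finger genes: chr4:145402501-145899750 with 351.8 kb, chr4:146049751-146290500 with 203.2 kb, chr4:146429251-147210750 with 346.5 kb and chr4:147313501-147840000 with 344.2 kb. In the last, H3K9me1 lay on 76.2% and H3K9me2 on 81.0% of the covered bases, and in the others each mark lay on 36.9% to 47.97%. On chromosome 3, chr3:106122001-106311750 carried H3K9me1 on 92.8% and H3K9me2 on 98.4% of 187.5 kb, and covered the chitinase-like genes Chil3 and Chil4 whole. Its duplicated share was 13.7%, the lowest of these. Of 2 further regions with both marks over a great length, chr7:43123501-43206750 lay in Zfp936 (62.4% duplicated) and chr4:121974751-122060250 met no gene with a name of its own (16.2% duplicated).

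The largest clusters over vomeronasal receptor genes, which detect pheromones, had little or no H3K9me1 and differed in H3K9me2, which lay on 18.49% of the bases of all clusters. On chromosome 7, 14 regions at chr7:21975751-22919250 covered 587.2 kb with H3K9me2 on 24.01% and H3K9me1 on 1.92% of it, and 16 regions at chr7:20089501-20763000 covered 402.8 kb with H3K9me2 on 7.08% and no H3K9me1. Their duplicated shares were 97.3% and 99.5%. On chromosome 12, 10 clusters in a row were duplicated and met no other mark. They held 110 regions on 897 kb within chr12:17958751-24428250, bounds set by the clusters themselves. Their duplicated words ran from 54.7% to 93.3%, over 45 annotated genes of which 2 were protein-coding. The cluster at the start of the same chromosome, chr12:3000001-3063750, had 85.3% duplicated words and another mark on 67.6% of its covered bases. Duplicated sequence was thus found both with and without H3K9me1 and H3K9me2.

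**Figure D5:**
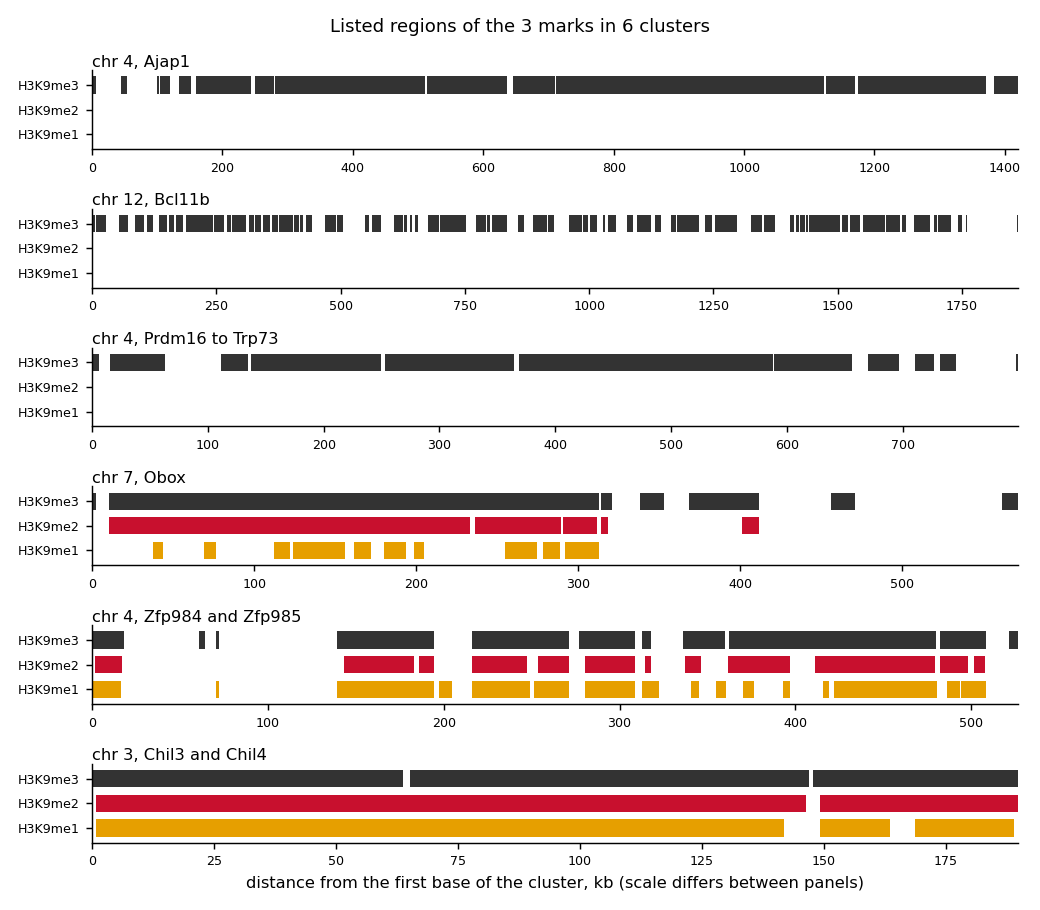
Regions listed for H3K9me3 (black), H3K9me2 (red) and H3K9me1 (orange) in 6 clusters, drawn to scale in kb from the first base of each cluster, with a scale of its own per panel. The first 3 clusters, with Ajap1, Bcl11b and Prdm16 to Trp73, show H3K9me3 alone over 645 to 1271 kb of covered bases, while in the Obox, Zfp984 and Chil3 clusters the other marks lie under most of the long H3K9me3 regions.

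Of all 1665 regions, 355 (21.3%, interval 19.4% to 23.4%) met a promoter, taken as 1 kb on either side of an annotated transcript start, against 19.5% over the whole list. A further 299 regions (17.96%) lay in introns, 66 met an exon, 7 met a 5′ UTR, 20 met a 3′ UTR and 918 (55.1%) were intergenic. Promoters were met by 72.3% of the regions with both other marks and 17.6% of those with H3K9me3 alone. By width they were met by 15.2% of regions of 1.5 to 3 kb and 83.3% of those over 48 kb. Of the 21589 annotated genes on the 8 chromosomes, 557 (2.58%) had a promoter inside or touching a region. Protein-coding genes stood at 151 of 8124 (1.86%), processed pseudogenes at 140 of 4122 (3.40%), unprocessed pseudogenes, which arise by gene duplication, at 68 of 926 (7.34%) and snoRNA genes at 44 of 712 (6.18%).

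The zinc finger genes that were met lay mostly on chromosome 4. Of 210 Zfp genes on the 8 chromosomes 16 (7.62%) had a promoter met, against 2.58% of all genes, and each of these 16 promoters also met H3K9me1 or H3K9me2, against 173 of the 557 promoters met over all genes. Among protein-coding Zfp genes the body was met in 18 of 30 on chromosome 4, in 2 of 92 on chromosome 7, in 1 of 36 on chromosome 13, in 1 of 4 on chromosome 3, in 1 of 5 on chromosome 12, in 0 of 17 on chromosome 6, in 0 of 5 on chromosome 16, and in 0 of 11 on the remaining chromosome. Over all protein-coding genes the body was met in 320 of 8124 (3.94%). The last exon, which in these genes commonly encodes the zinc fingers, was met in 12 of the 23. Zfp984 was covered over 53.6 kb (95.97%), Zfp985 over 31.7 kb (99.4%), Zfp986 over 30.96 kb (99.3%) and Zfp987 over 27.1 kb (92.3%). Zfp993 was covered over 77.9% and Zfp534 over 92.3% of its length. Zfp936 on chromosome 7 was covered over 68.6 kb (88.1%). Their clusters held 68.2% to 93.2% duplicated words on chromosome 4, so the coverage of single genes is uncertain, and the part of shared reads in it was not tested.

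Likeness was also found between the promoters of a pair of these genes. Sequences were compared for 5 Zfp promoters that lay wholly inside regions and outside UTRs. These came from the Zfp genes with the most bases covered, and not from all 16 with a promoter met. Zfp987 and Zfp534, on opposite strands of chromosome 4, were the most similar pair among the 5, and both promoters also met H3K9me2. The 250 bases before each start are given as in RefSeq on GRCm38.p6, with the longest run of bases shared by both, 91 bases, in capitals.
Zfp987, chr4:146097062-146097311, plus strand: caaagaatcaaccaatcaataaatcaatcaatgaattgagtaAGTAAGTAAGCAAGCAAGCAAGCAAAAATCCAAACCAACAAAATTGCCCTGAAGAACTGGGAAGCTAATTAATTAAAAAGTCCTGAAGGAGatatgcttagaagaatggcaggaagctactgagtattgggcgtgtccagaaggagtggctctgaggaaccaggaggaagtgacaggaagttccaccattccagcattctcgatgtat
Zfp534, chr4:147702632-147702881, minus strand: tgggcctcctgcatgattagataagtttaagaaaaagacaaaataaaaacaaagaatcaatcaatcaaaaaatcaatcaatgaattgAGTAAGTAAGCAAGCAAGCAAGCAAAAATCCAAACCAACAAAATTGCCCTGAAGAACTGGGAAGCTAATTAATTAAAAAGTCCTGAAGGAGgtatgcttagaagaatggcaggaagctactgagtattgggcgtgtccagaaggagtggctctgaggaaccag
Shared blocks in the same order made up 198 of the 250 bases.

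The other gene lists were met unevenly, beside 2.58% of all genes with a promoter met and another mark at 173 of those 557 promoters. Of 53 Obox genes and pseudogenes 22 (41.5%) had a promoter met, 20 of them also with another mark. Of 48 genes and pseudogenes of the major urinary proteins, liver-made pheromone carriers, 11 (22.9%) had one, 9 of them with another mark, and Mup18, Mup19, Mup5 and Mup9 were covered whole. Of 448 vomeronasal receptor genes and pseudogenes 23 (5.13%) had one, 7 with another mark. Immunoglobulin segments stood at 7 of 383 (1.83%), with a run of 4 heavy chain segments from Ighv1-23 to Ighv1-26 covered whole and carrying both other marks. Olfactory receptors, a family of similar size, had 1 of 426 (0.235%), namely Olfr1349. Prl2c3, a proliferin gene of the prolactin family on chromosome 13, was covered whole with both other marks, and the pseudogene Cyp2j7-ps3 was the 1 of 53 Cyp genes with a promoter met. In 16 of the 25 lists, with 515 genes, no promoter was met, among them histone genes, interferons, kallikreins, the Hoxa cluster, serpins and the 13 germline genes.

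Of 30 imprinted genes 4 (13.3%) had their body met, against 777 of all 21589 genes (3.60%), each by 1 region without another mark, and 1 had its promoter met. Mest, which is expressed from the paternal copy, had its promoter met by chr6:30735001-30739500, 4.5 kb wide with 10.5% soft-masked bases. In Peg3, a zinc finger gene also expressed from the paternal copy, chr7:6707251-6714000 covered 6.75 kb (25.4%) towards the 3′ end and not the promoter, with 3.05% soft-masked. Copg2 had 2.25 kb in its body, and the retrotransposon-derived gene Rtl1 on chromosome 12 a single 750 bp step. The rest of the 30 imprinted genes were not met.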

How the data were processed

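The libraries, 2 replicates per mark and 2 of input from wild-type fibroblasts, were aligned by the authors with BWA 0.7.1 to mm10 (GRCm38), and regions were called with histoneHMM. The version, threshold and handling of replicates, input and multiply placed reads are not given in the sources used here. The deposited lists give chromosome, start and end of pooled regions, as genome positions in bp, with no score. All starts and ends fitted a 750 bp grid read as 1-based with inclusive ends.

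Regions were intersected (minimum 1 bp) with each other and with GENCODE M21 on 21 chromosomes, using Python 3.11.15, NumPy 2.4.6 and pandas 2.3.3. Classes were given in the order promoter (1 kb either side of a start), 5′ UTR, 3′ UTR, exon, intron, intergenic. Soft-masking and GC came from the RefSeq GRCm38.p6 genome. For the duplicated shares, words of 24 bases were sampled 1 in 16 by hash, both inside and outside the regions. All words were used to count sharing between regions and for the windows. Primer binding sites came from 403 RefSeq tRNA genes, using the last 15 bases of each plus CCA. Shares have 95% Wilson intervals (SciPy 1.17.1), which cover counting error only and take neighbouring regions as independent. Interval and word counting were checked on simulated data.

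Named regions were the widest of each chromosome and the 5 with both other marks over most bases. Named clusters were the 8 with the most covered bases, and named genes up to 5 for each of these and up to 10 with a promoter met per gene list, by bases covered. Other names were chosen after their values were seen, as were the primer site search, the window copy counts and the 3 kinds of clusters. The members and lists were chosen with earlier results of these data known. No test was run. Alternatives changed the minimum width, chaining distance, overlap, promoter definition, coordinate reading and the chromosomes used.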

Additional observations from a re-analysis of the deposited data

How the results depend on the processing

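The share of regions in clusters (44.6%) was 36.6% when chained up to 50 kb apart, 54.4% up to 250 kb, 85.2% up to 1 Mb, and 36.9% for clusters of 5 or more. Of the regions, 1004 were at least 5000 bp wide. With these alone the clustered share was 47.8%, the share meeting H3K9me1 10.2%, H3K9me2 12.25%, a promoter 25.3%, and the soft-masked share 47.1%. Without chromosome 12, which had the most regions, 39% were clustered, 8.35% met H3K9me1 and 9.50% H3K9me2. Asking the other mark to cover 50% or more of a region gave 4.685% for H3K9me1 and 6.19% for H3K9me2. A promoter was met by 8.35% when the start sites of protein-coding genes alone were used and by 27.3% at 3 kb either side. The soft-masked share, 50% over all bases, was 79.2% as the median over regions. A minimum of 1500 bp, starts read as 0-based, another mark within 5 kb, and gene 5′ ends only each left the shares they were applied to inside their intervals. The duplicated shares have no interval. Their values without chromosome 4, without chromosome 7 and away from assembly gaps are given in the report. At a minimum of 5000 bp they were 75.66% with another mark and 15.45% with H3K9me3 alone. The settings used for them were added after the data were seen. The causes of these shifts were not tested. No paired analysis was possible because each mark had a single list with no values per replicate, and for the same reason leaving out a replicate was not run. Depth and enrichment per region are unknown, so a region that is not listed is not shown to lack the mark.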

Other observations

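H3K9me1 was also found away from H3K9me3 on these chromosomes. Of its 232 regions, 76 met no H3K9me3 region, with 801.8 kb in all and a median width of 6.75 kb. Of these 76 regions, 60 met an annotated gene body, with 49 protein-coding genes among the 71 genes met. The share of these chromosomes that lies in gene bodies was not measured, so no preference for genes can be read from that count. H3K9me2 was met by 6 of the 76. The stretch with the most bases was 700.5 kb on chromosome 18, where 12 regions held 333.8 kb. Smaller ones were 9 regions with 57 kb in 499.5 kb on chromosome 4, 5 with 61.5 kb in 102 kb on chromosome 6 and 3 with 37.5 kb in 47.25 kb on chromosome 12. H3K9me2 had 9 regions with 69 kb away from H3K9me3.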
